A study of Mus musculus with 8 samples.

Results

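The genes described here are 44 cell cycle and proliferation genes of the mouse aorta, picked by symbol from a table of 35896 genes. They fall into 25 genes of G2, mitosis and cytokinesis (the mitotic genes), 15 genes of G1/S and DNA synthesis (the S phase genes) and 4 transcription regulators of the cycle. All 44 were in the table and all 44 had enough counts to be tested.

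A dividing cell first licenses its replication origins and copies its DNA, then builds a spindle, separates its chromosomes and pinches apart. Factors of the E2F family switch on the genes of DNA synthesis, and a later wave under FOXM1, B-MYB and the MuvB complex switches on the mitotic genes, so that the transcripts of the later wave are made mostly by cells that are on their way to divide. In the healthy adult aorta nearly all smooth muscle and endothelial cells rest outside the cycle.

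RNA-sequencing was done on 8 libraries of aortic tissue from C57BL6 mice, 2 in each of 4 groups. Male mice aged 11 weeks received angiotensin II, a peptide hormone that raises blood pressure, from an osmotic minipump at 2.8 mg/kg/d for 2 weeks and were killed at the end of the infusion (AngII), 2 weeks after it (AngII+2W) or 3 weeks after it (AngII+3W). Untreated littermates matched for age (CTRL) were the reference. The study states that control mice were killed at each of the 3 times. From which of these times the sequenced CTRL pools came, and whether these mice carried a pump, is not given in the sources used here. All mice were of 1 wild-type strain, each library pooled pieces of aorta from 2 mice, and the groups hold different mice, so that p-values rest on the spread between 2 pools per group.

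The values of a library summed to between 18130441 and 21498200 counts, and 3 counts, taken as the limit of detection, are 0.140 to 0.165 counts per 1000000 counts (CPM). Every member was above this limit in every library, with the lowest value at 8 counts, but 10 of the 44 had fewer than 30 counts in both CTRL libraries. Levels are CPM on normalised library sizes, and differences are log2 fold changes from edgeR's quasi-likelihood test over all 17182 genes tested, with Benjamini-Hochberg adjusted p-values (FDR) and a threshold of 0.05. Smooth muscle markers were present in every library, at a summed 1679 to 9213 CPM for 6 genes. Skeletal muscle markers took 0.137% of the counts of AngII+3W replicate 1 and at most 0.00717% in each of the other libraries. The 7 cardiac muscle markers, none of them at 0, summed to 5275 and 2333 CPM (CTRL), 1424 and 912 (AngII), 243 and 83.0 (AngII+2W) and 6036 and 468 (AngII+3W), so that both AngII libraries were below both CTRL libraries and the AngII+2W libraries below all others. None of the 7 passed the test in any comparison, and their part in the results was not tested. Because tissue was sequenced, more cells in the cycle and more of these transcripts per cell cannot be told apart.

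Promoter sequence was examined first, since the members divide into classes by the factors that are known to control them. RefSeq windows of 300 bases (250 before and 50 after the annotated start, GRCm38.p6) were available for 37 of the 44 members. Words searched on both strands were those of the cell cycle homology region (CHR, TTTGAA and TTCGAA), through which MuvB complexes bind, those of E2F factors (TTTCCCGC, TTTCGCGC, TTTGGCGC and TTTGCCGC) and the CCAAT box of NF-Y. A CHR word stood in the windows of 17 of 21 mitotic genes (81.0%) and of 3 of 13 S phase genes (23.1%), with 21.7% over all 27025 genes with a window. An E2F word stood in 1 of 21 mitotic genes (4.76%), which was Cdk1, and in 6 of 13 S phase genes (46.2%), with 2.60% over all genes. CCAAT was found in 18 of 21 mitotic and 9 of 13 S phase genes (85.7% and 69.2%, against 41.1% over all genes). Words of different kinds overlapped at 1 place in the member windows, while E2F words overlapped each other in Mcm5 and Mcm6. A match of letters is not a bound site, and a window without a match says only that these letters are not in it.

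The 200 bases before the start are shown for 8 members that the comparisons below turn on, 5 mitotic genes that rose, the S phase gene that rose and 2 helicase genes that did not pass the test. Each is written 5′ to 3′ on the strand of the gene, with CHR, E2F and CCAAT words of either strand in capitals.
Mki67, chr7:135716380-135716579, minus strand: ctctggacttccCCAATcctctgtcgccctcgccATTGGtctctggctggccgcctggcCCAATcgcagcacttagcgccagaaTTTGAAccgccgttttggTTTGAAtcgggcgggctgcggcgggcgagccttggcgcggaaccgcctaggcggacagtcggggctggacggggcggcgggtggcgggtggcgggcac
Top2a, chr11:99024190-99024389, minus strand: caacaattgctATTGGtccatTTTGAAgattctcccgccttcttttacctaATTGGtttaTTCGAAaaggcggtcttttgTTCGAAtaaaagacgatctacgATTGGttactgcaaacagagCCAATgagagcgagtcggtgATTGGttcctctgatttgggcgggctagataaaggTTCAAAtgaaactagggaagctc
Cdk1, chr10:69352913-69353112, minus strand: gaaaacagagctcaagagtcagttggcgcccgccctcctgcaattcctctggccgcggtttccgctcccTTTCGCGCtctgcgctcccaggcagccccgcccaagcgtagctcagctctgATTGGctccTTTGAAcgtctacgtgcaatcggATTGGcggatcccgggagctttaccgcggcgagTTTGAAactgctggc
Prc1, chr7:80294276-80294475, plus strand: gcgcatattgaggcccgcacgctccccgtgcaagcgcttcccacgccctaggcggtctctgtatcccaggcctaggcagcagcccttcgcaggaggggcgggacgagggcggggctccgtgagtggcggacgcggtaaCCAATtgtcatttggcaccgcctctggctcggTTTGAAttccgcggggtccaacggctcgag
Kif11, chr19:37376182-37376381, plus strand: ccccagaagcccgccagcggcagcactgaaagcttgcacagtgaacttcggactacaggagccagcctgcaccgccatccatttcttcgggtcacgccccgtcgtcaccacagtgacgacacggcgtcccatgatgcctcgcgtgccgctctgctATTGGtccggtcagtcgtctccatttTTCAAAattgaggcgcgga
Rrm2, chr12:24708054-24708253, plus strand: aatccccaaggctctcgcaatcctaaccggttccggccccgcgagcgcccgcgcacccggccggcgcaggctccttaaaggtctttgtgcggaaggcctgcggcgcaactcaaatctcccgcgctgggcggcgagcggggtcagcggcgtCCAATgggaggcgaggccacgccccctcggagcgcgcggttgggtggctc
Mcm5, chr8:75109309-75109508, plus strand: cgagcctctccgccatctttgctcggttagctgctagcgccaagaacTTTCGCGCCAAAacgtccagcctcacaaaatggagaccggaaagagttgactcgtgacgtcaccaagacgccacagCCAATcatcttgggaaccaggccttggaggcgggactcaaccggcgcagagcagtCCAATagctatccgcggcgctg
Mcm6, chr1:128359706-128359905, minus strand: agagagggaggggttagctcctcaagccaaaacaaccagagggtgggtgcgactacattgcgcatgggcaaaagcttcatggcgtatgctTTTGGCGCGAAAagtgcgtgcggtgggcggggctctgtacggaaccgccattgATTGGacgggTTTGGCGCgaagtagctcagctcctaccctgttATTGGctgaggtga
In this set the 5 mitotic promoters each held at least 1 CHR word, Rrm2 held neither CHR nor E2F words, and Mcm5 and Mcm6 held E2F but no CHR words. These 8 were chosen and do not stand for all members. A CHR word stood in the windows of 12 of 16 members that rose in AngII and 9 of 21 that did not pass. Ccnb1, Cenpe and E2f1 rose without a CHR word. Mcm2, Mcm7, Cdc45, Cdc20, Aurka, Bub1b, Ube2c, E2f8 and Anln held a CHR word and did not pass.

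**Figure D1:**
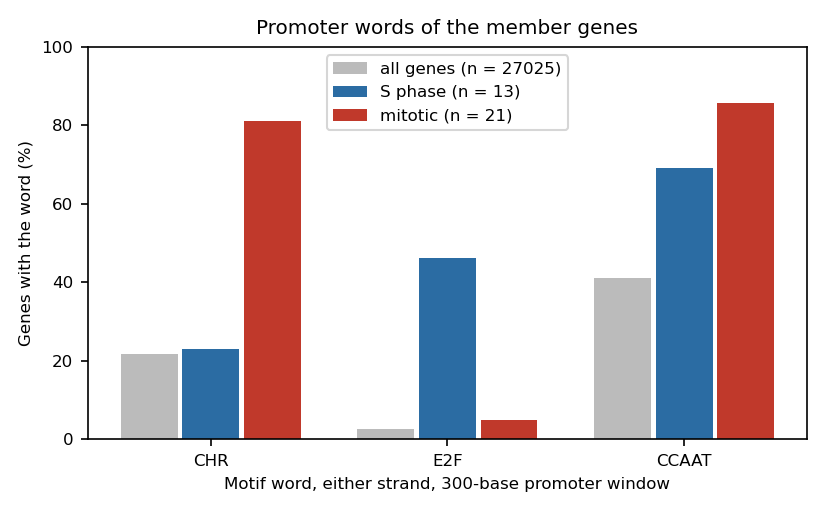
Share of genes (y axis, %) with at least 1 CHR, E2F or CCAAT word (x axis) in the 300-base window, for all 27025 genes with a window (grey), 13 S phase members (blue) and 21 mitotic members (red). CHR words stand in 81.0% of the mitotic and 23.1% of the S phase genes, E2F words in 4.76% and 46.2%.

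At the end of the infusion most of the mitotic genes were higher than in untreated aortas. Of 25 mitotic genes 18 rose, none fell and 7 did not pass the test, and the class median of the log2 fold change was 1.68 in AngII against CTRL. Among the 15 S phase genes 1 rose, Rrm2 (median 0.64), and of the 4 regulators E2f1 and Foxm1 rose (median 1.24). Over all 44 members 21 rose and 0 fell, where 2.90% of all genes tested rose and 2.20% fell in this comparison, and at an unadjusted p below 0.05 there were 31 higher and 1 lower, against 10.9% and 9.29% of all genes. By class, 22 of 25 mitotic and 6 of 15 S phase members were higher at this unadjusted threshold, and 1 and 0 were lower. The median log2 fold change was 1.21 for the members and -0.01 for all genes. Both AngII libraries lay above all 6 other libraries for 34 members (23 mitotic, 8 S phase and 3 regulators), as they did for 11.9% of all genes. The difference between the classes is described by these counts and medians and was not itself tested.

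**Figure D2:**
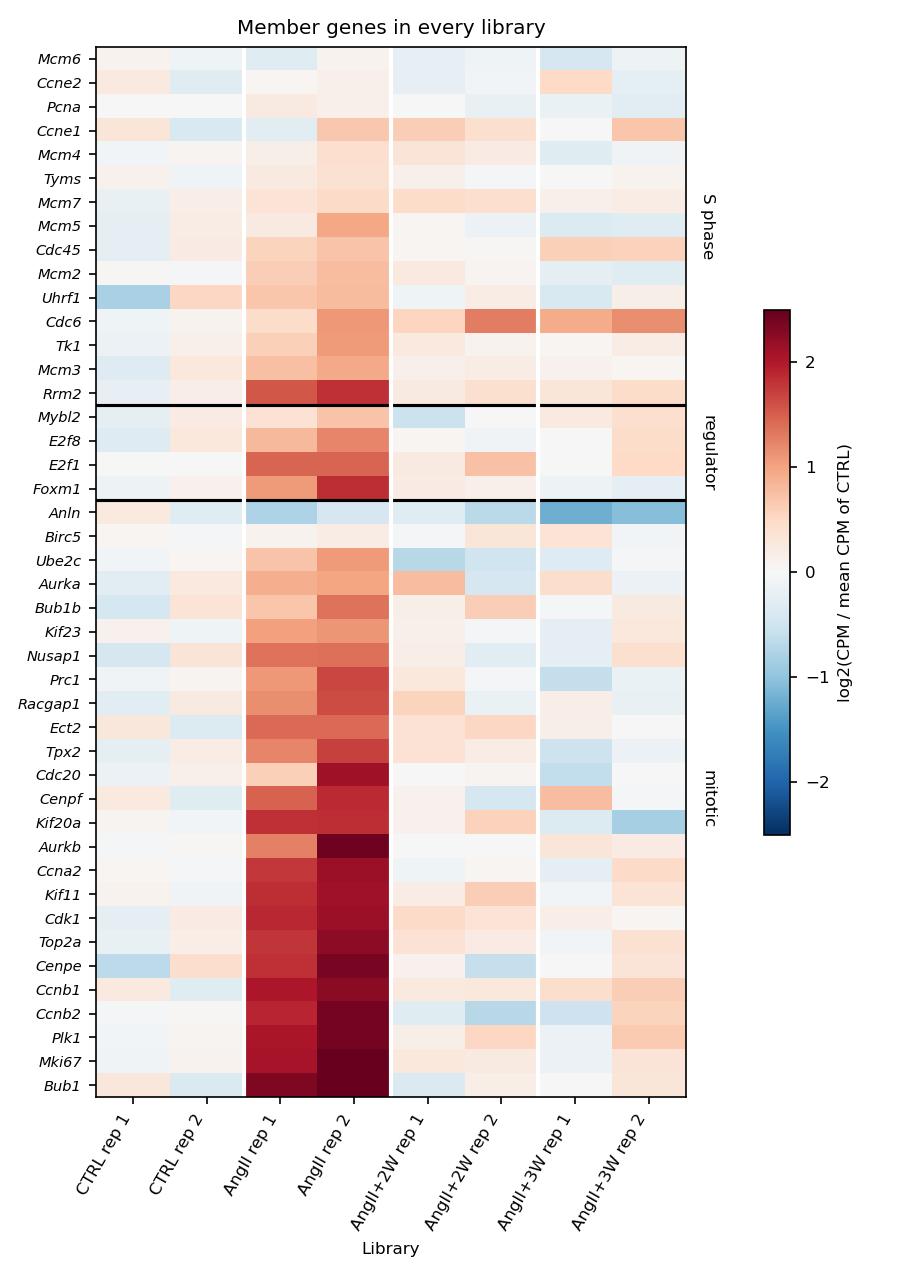
Colour gives the log2 ratio of each library's CPM to the CTRL mean for the 44 members (rows, by class and then by fold change in AngII) in the 8 libraries (columns). The colour scale ends at 2.5 on either side. The red block is in both AngII libraries and mostly in the mitotic rows, 23 of 25 of which have both AngII libraries above the 6 others.

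Mki67 encodes the Ki-67 antigen of cycling cells. It was at 11.0 and 12.3 CPM in CTRL, 48.6 and 66.3 in AngII, then 14.05 and 13.6 (AngII+2W) and 10.5 and 14.6 (AngII+3W). Both AngII libraries stood far above the other 6. Among those, AngII+2W lay above CTRL by a small step without overlap, and AngII+3W overlapped with both. The log2 fold change of Mki67 in AngII was 2.30 ± 0.21 (SE, FDR 0.00530), the lowest FDR of the members. Top2a, the topoisomerase that untangles sister chromatids, was at 6.77 and 8.61 CPM in CTRL, 26.6 and 36.3 in AngII, then 9.85 and 8.81 (AngII+2W) and 7.36 and 9.99 (AngII+3W). It followed the same order of groups with a log2 fold change of 2.03 ± 0.23 (SE, FDR 0.00778). Mki67 lies at chr7:135689784-135716361 and Top2a at chr11:98992943-99024189 (GRCm38). Per kb of exon, Mki67 in CTRL was at 1.16 CPM, below 9 other members with Pcna and Mcm3, Mcm4, Mcm6 and Mcm7 among them, and in AngII at 5.71 CPM, where only Pcna with 10.9 was higher among the members.

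The kinase that drives entry into mitosis, Cdk1, was at 0.974 and 1.32 CPM in CTRL, 4.21 and 5.07 in AngII, then 1.59 and 1.45 (AngII+2W) and 1.29 and 1.18 (AngII+3W). Its B-type cyclin Ccnb1 was at 1.17 and 0.800 CPM (CTRL), 3.996 and 4.69 (AngII), 1.17 and 1.18 (AngII+2W) and 1.34 and 1.504 (AngII+3W). Ccnb2 was at 0.682 and 0.706 CPM (CTRL), 2.59 and 3.65 (AngII), 0.560 and 0.430 (AngII+2W) and 0.484 and 1.02 (AngII+3W). For all 3 genes the AngII libraries did not overlap with any other library, and the log2 fold changes were 2.01 ± 0.28 (SE, FDR 0.0142) for Cdk1, 2.14 ± 0.30 (SE, FDR 0.0138) for Ccnb1 and 2.16 ± 0.42 (SE, FDR 0.0339) for Ccnb2. Ccna2, the cyclin of S phase and G2, went from 1.71 and 1.60 CPM in CTRL to 5.62 and 7.34 in AngII, then 1.54 and 1.72 (AngII+2W) and 1.40 and 2.31 (AngII+3W), a log2 fold change of 1.97 ± 0.30 (SE, FDR 0.0172). Ccnb1 shares 97.3% to 99.2% of its sequence over about 52% of its transcript with 3 processed pseudogenes, so that its reads could have been split between copies.

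Among the kinases and checkpoint genes of the spindle, Plk1 (polo-like kinase) was at 0.682 and 0.753 CPM in CTRL, 2.97 and 3.74 in AngII, then 0.793 and 1.02 (AngII+2W) and 0.645 and 1.13 (AngII+3W). Bub1, a kinase of the spindle checkpoint, was at 0.585 and 0.376 CPM (CTRL), 2.43 and 3.27 (AngII), 0.373 and 0.537 (AngII+2W) and 0.484 and 0.591 (AngII+3W). Aurkb, the kinase of the chromosomal passenger complex, was at 0.731 and 0.753 CPM (CTRL), 1.78 and 4.03 (AngII), 0.747 and 0.752 (AngII+2W) and 0.914 and 0.860 (AngII+3W). All 3 rose in AngII, by a log2 fold change of 2.22 ± 0.37 (SE, FDR 0.0208) for Plk1, 2.56 ± 0.41 (SE, FDR 0.0183) for Bub1 and 1.97 ± 0.44 (SE, FDR 0.0474) for Aurkb. Bub1 had the highest fold change of the 44, 5.88-fold, at low levels (8 to 12 counts in CTRL). Cdc20, the activator of the anaphase-promoting complex, was at 0.974 and 1.18 CPM in CTRL, 1.62 and 4.64 in AngII, then 1.07 and 1.13 (AngII+2W) and 0.699 and 1.07 (AngII+3W). Its 2 AngII libraries differed by 2.87 times, the widest gap of the members, and its log2 fold change of 1.54 ± 0.51 (SE, FDR 0.137) did not pass the test.

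The 4 mitotic kinesins among the members rose. Kif11, which pushes the spindle poles apart, was at 2.87 and 2.54 CPM in CTRL, 9.77 and 11.7 in AngII, then 3.08 and 4.13 (AngII+2W) and 2.58 and 3.44 (AngII+3W). Kif20a of the central spindle was at 1.51 and 1.36 CPM (CTRL), 5.13 and 5.17 (AngII), 1.54 and 2.15 (AngII+2W) and 1.13 and 0.806 (AngII+3W). Kif23, the kinesin of centralspindlin, was at 4.19 and 3.62 CPM (CTRL), 7.99 and 8.34 (AngII), 4.29 and 3.81 (AngII+2W) and 3.28 and 4.67 (AngII+3W). The log2 fold change in AngII was 1.99 ± 0.25 (SE, FDR 0.00987) for Kif11, 1.84 ± 0.29 (SE, FDR 0.0177) for Kif20a and 1.06 ± 0.23 (SE, FDR 0.0419) for Kif23, with no overlap between AngII and the other libraries. Cenpe, the kinesin of the kinetochore, was at 1.32 and 2.82 CPM in CTRL, 7.29 and 10.8 in AngII, then 2.24 and 1.40 (AngII+2W) and 2.04 and 2.58 (AngII+3W). It rose by 2.12 ± 0.41 (SE, FDR 0.0319) on the log2 scale. Exons of Kif20a share 29.3% of their bases with exons of Cdc23 on the other strand, and whether strand was used in the counting is not given in the sources used here.

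The remaining called mitotic genes act in the spindle and in cytokinesis. Tpx2, a factor of spindle assembly, was at 2.24 and 2.96 CPM in CTRL, 6.05 and 8.53 in AngII, then 3.36 and 2.95 (AngII+2W) and 1.83 and 2.36 (AngII+3W). Prc1, which bundles microtubules of the midzone, was at 3.85 and 4.28 CPM (CTRL), 8.64 and 13.0 (AngII), 4.90 and 3.92 (AngII+2W) and 2.69 and 3.6 (AngII+3W). Cenpf of the kinetochore was at 4.97 and 3.39 CPM (CTRL), 11.6 and 15.2 (AngII), 4.48 and 3.11 (AngII+2W) and 7.15 and 4.08 (AngII+3W). On the log2 scale Tpx2 rose by 1.48 ± 0.28 (SE, FDR 0.0282), Prc1 by 1.41 ± 0.27 (SE, FDR 0.0302) and Cenpf by 1.68 ± 0.34 (SE, FDR 0.0359). Ect2, the exchange factor that activates RhoA at the cleavage furrow, was at 1.95 and 1.27 CPM in CTRL, 4.32 and 4.31 in AngII, then 2.05 and 2.31 (AngII+2W) and 1.77 and 1.61 (AngII+3W). Racgap1, the partner of Kif23 in centralspindlin, was at 2.63 and 3.72 CPM (CTRL), 7.13 and 9.81 (AngII), 4.67 and 2.85 (AngII+2W) and 3.55 and 2.79 (AngII+3W). Ect2 rose by 1.42 ± 0.28 (SE, FDR 0.0348) and Racgap1 by 1.41 ± 0.32 (SE, FDR 0.0495).

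Of the 7 mitotic genes that did not pass the test, Nusap1, Bub1b, Aurka and Ube2c had log2 fold changes between 0.90 and 1.36 in AngII, with FDRs between 0.0598 and 0.330, besides Cdc20. Exons of Ube2c share 22.8% of their bases with the skeletal muscle gene Tnnc2 on the other strand. Ube2c was at 1.99 and 2.42 CPM in AngII+3W replicates 1 and 2, of which replicate 1 held skeletal muscle transcripts. The part of this overlap in its values was not tested. Birc5 and Anln stood apart from the others and are named after their values were seen. Birc5 (survivin, of the chromosomal passenger complex) was at 6.48 and 6.12 CPM in CTRL and 6.70 and 7.16 in AngII. Its log2 fold change was 0.14 ± 0.21 (SE, FDR 0.782) with a 95% interval of -0.35 to 0.63. Anln (anillin, a scaffold of the contractile ring) was at 38.9 and 26.7 CPM in CTRL, 19.1 and 24.6 in AngII, then 26.4 and 20.5 (AngII+2W) and 14.03 and 15.7 (AngII+3W). Its libraries lay lowest in AngII+3W. In AngII its log2 fold change was -0.58 ± 0.23 (SE, FDR 0.201), the only mitotic gene with a negative value. With Anln left out, an alternative added after the values were seen, the summed mitotic level was 64.3 and 70.7 CPM in CTRL, 191 and 254 in AngII, then 77.3 and 74.0 (AngII+2W) and 67.0 and 75.9 (AngII+3W).

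**Figure D3:**
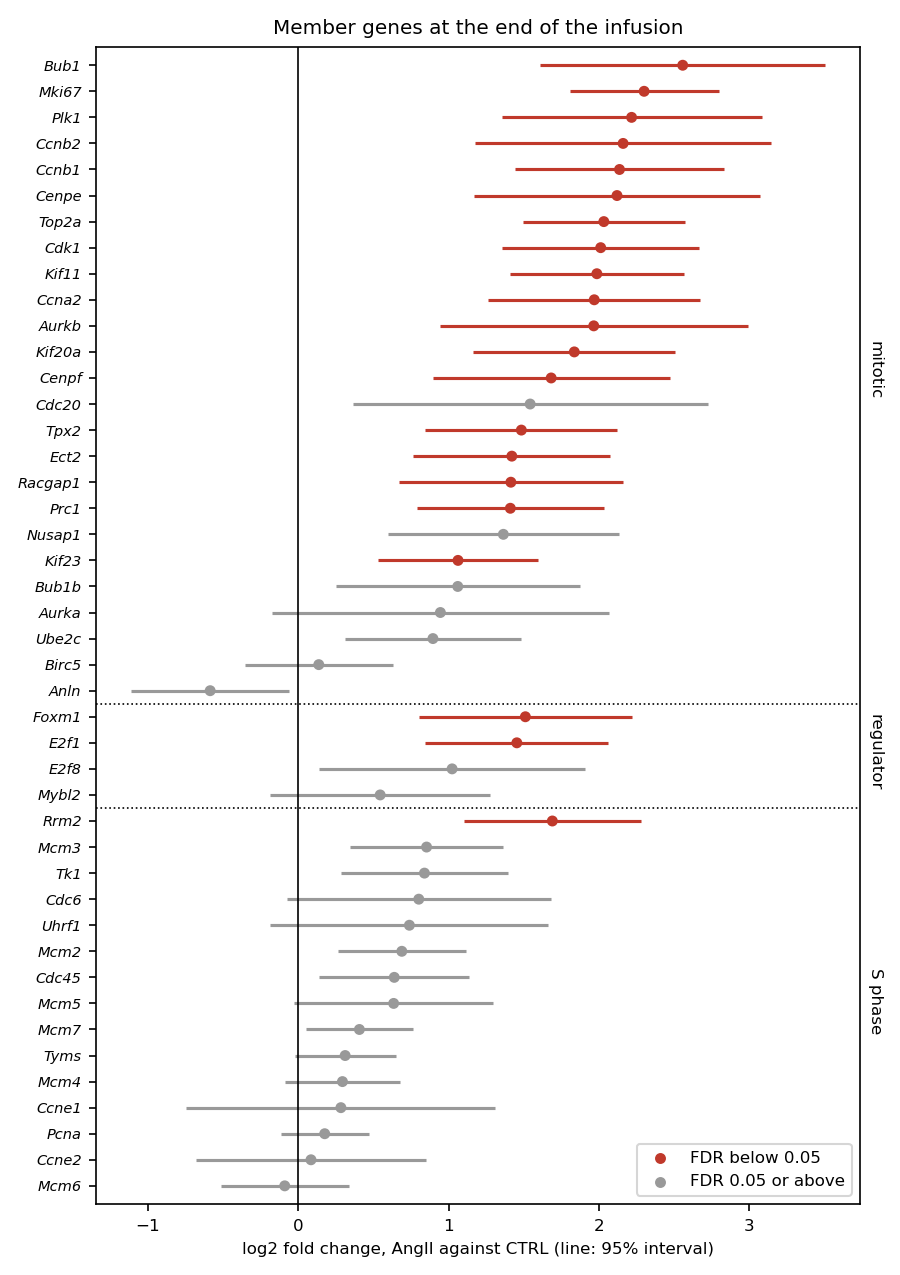
Log2 fold change of each member in AngII against CTRL (x axis, points) with its 95% interval (lines), 2 libraries per group. Red points have an FDR below 0.05: 18 of 25 mitotic genes, 2 of 4 regulators and 1 of 15 S phase genes, while Anln lies left of 0.

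Among the S phase genes, Rrm2, the small subunit of ribonucleotide reductase that makes deoxynucleotides, was at 1.56 and 2.02 CPM in CTRL, 5.24 and 6.35 in AngII, then 2.10 and 2.36 (AngII+2W) and 2.20 and 2.47 (AngII+3W). It was the S phase gene with AngII libraries most clearly above the rest, and its log2 fold change was 1.69 ± 0.25 (SE, FDR 0.0160). Pcna, the sliding clamp of the replicative polymerases and the member with the highest level per kb of exon in every group, was at 23.0 and 23.5 CPM in CTRL, 27.0 and 25.5 in AngII, then 23.0 and 20.5 (AngII+2W) and 20.7 and 19.2 (AngII+3W). The AngII libraries were the highest but by a small step, and the log2 fold change was 0.18 ± 0.13 (SE, FDR 0.498) with an interval of -0.12 to 0.47. At these counts (357 to 539 in a library) a doubling of Pcna lies outside the interval. Pcna has a processed pseudogene, Pcna-ps2, with 99.2% identity over 51.4% of its transcript.

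Mcm2 to Mcm7 encode the 6 subunits of the ring-shaped helicase that opens the DNA at replication forks. Mcm2 was at 4.82 and 4.66 CPM in CTRL, 7.24 and 8.06 in AngII, then 5.60 and 4.94 (AngII+2W) and 3.98 and 3.87 (AngII+3W). Mcm3 was at 4.87 and 7.24 CPM (CTRL), 10.3 and 11.7 (AngII), 6.63 and 6.87 (AngII+2W) and 6.56 and 6.29 (AngII+3W). Mcm5 was at 3.80 and 5.03 CPM (CTRL), 5.13 and 8.58 (AngII), 4.57 and 3.97 (AngII+2W) and 3.49 and 3.6 (AngII+3W). In all 3 both AngII libraries were above the other 6, most narrowly in Mcm5, where AngII replicate 1 was close to CTRL replicate 2. Mcm4 was at 11.1 and 12.1 CPM in CTRL, 12.8 and 15.6 in AngII, then 14.5 and 13.4 (AngII+2W) and 9.41 and 10.9 (AngII+3W). Mcm6 was at 20.5 and 17.8 CPM (CTRL), 15.6 and 20.4 (AngII), 16.5 and 17.9 (AngII+2W) and 14.3 and 17.6 (AngII+3W). Mcm7 was at 13.0 and 16.3 CPM (CTRL), 18.5 and 20.4 (AngII), 20.1 and 19.7 (AngII+2W) and 16.1 and 16.7 (AngII+3W). In these 3 the AngII libraries overlapped with those of another group. None of the 6 passed the test in AngII against CTRL. The log2 fold changes were 0.69 ± 0.18 (SE, FDR 0.0770) for Mcm2, 0.85 ± 0.22 (SE, FDR 0.0698) for Mcm3, 0.29 ± 0.17 (SE, FDR 0.380) for Mcm4, 0.64 ± 0.28 (SE, FDR 0.266) for Mcm5, -0.09 ± 0.18 (SE, FDR 0.842) for Mcm6 and 0.41 ± 0.15 (SE, FDR 0.186) for Mcm7. The subunits work in 1 complex, but the upper ends of their 95% intervals ran from 0.34 (Mcm6) to 1.36 (Mcm3). Mcm7 also has a processed pseudogene with 97.7% identity over 72.8% of its transcript. The other 7 S phase genes, among them Tk1, Tyms, Cdc45 and the E-type cyclins, had log2 fold changes between 0.09 and 0.84 and FDRs of at least 0.0910.

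By their median the regulators stood between the classes. E2f1, an activator of the genes of DNA synthesis, was at 2.58 and 2.59 CPM in CTRL, 7.13 and 7.06 in AngII, then 3.03 and 4.30 (AngII+2W) and 2.58 and 3.65 (AngII+3W). Foxm1, a factor of the mitotic wave, was at 2.00 and 2.35 CPM (CTRL), 4.54 and 7.87 (AngII), 2.52 and 2.36 (AngII+2W) and 1.99 and 1.83 (AngII+3W). Both rose in AngII without overlap, E2f1 by 1.45 ± 0.26 (SE, FDR 0.0259) and Foxm1 by 1.51 ± 0.30 (SE, FDR 0.0359) on the log2 scale. E2f8, a repressor of E2F targets, was at 0.682 and 1.03 CPM in CTRL, 1.51 and 1.99 in AngII, then 0.887 and 0.805 (AngII+2W) and 0.860 and 1.18 (AngII+3W), a log2 fold change of 1.02 ± 0.38 (SE, FDR 0.183). Mybl2, which encodes B-MYB, was at 1.51 and 2.02 CPM (CTRL), 2.27 and 2.89 (AngII), 1.21 and 1.77 (AngII+2W) and 2.10 and 2.36 (AngII+3W), with 0.55 ± 0.31 (SE, FDR 0.393). Neither passed the test, and AngII replicate 1 of Mybl2 lay within the range of the AngII+3W libraries.

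**Figure D4:**
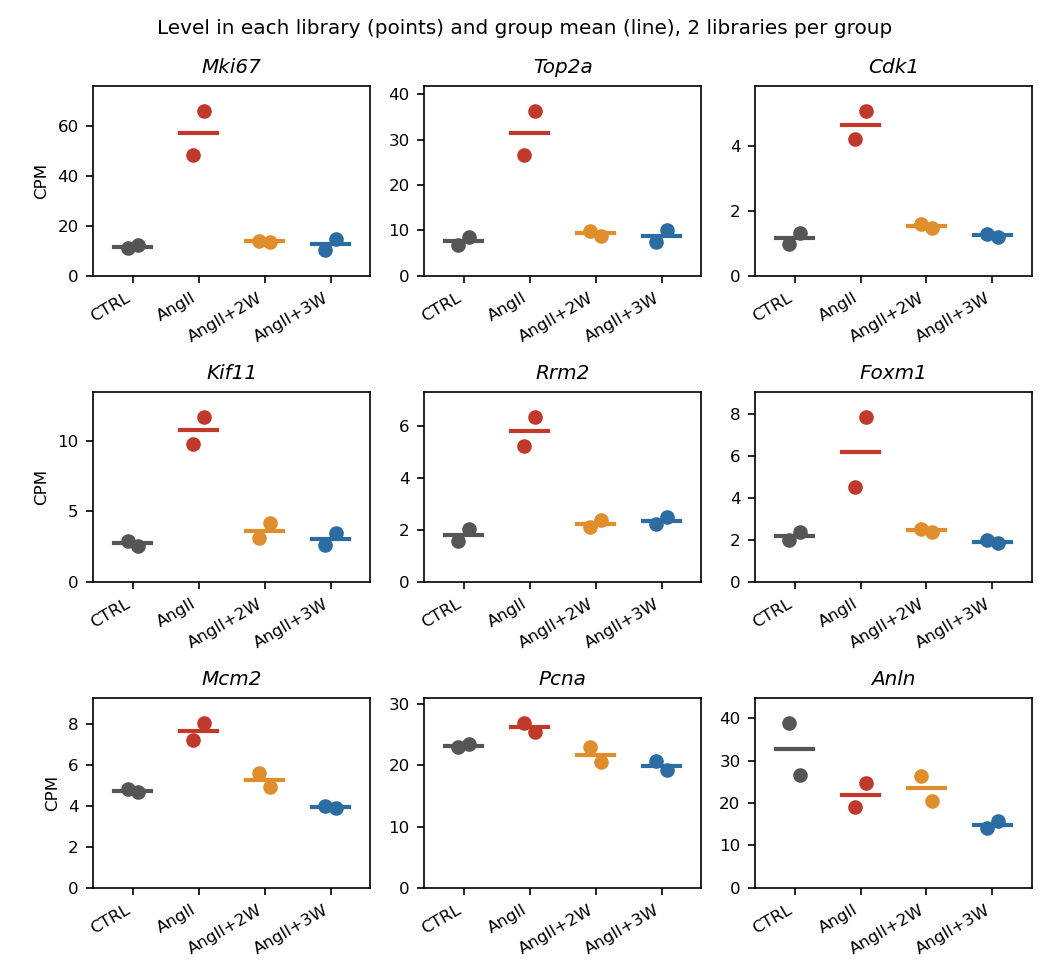
CPM (y axis, from 0) of 9 members in each library (points) with the group mean (line), 2 libraries per group. In the upper 6 panels both AngII libraries lie above all others, Mcm2 and Pcna step up less, and Anln is highest in CTRL.

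The 2 AngII libraries were not alike. AngII replicate 2 had the higher CPM for 41 of 44 members, against 51.8% of all genes, with a median ratio of 1.28 (mitotic 1.31, S phase 1.14). The 8 markers of macrophages and monocytes, none of them at 0, summed to 686 and 1108 CPM in AngII replicates 1 and 2, and to between 257 and 482 CPM in the other 6 libraries. Of these markers 5 of 8 rose in AngII (Ccr2, Ptprc, Cd68, Adgre1 and Mrc1). The 6 fibroblast markers, also none at 0, summed to 7997 and 12941 CPM in AngII and to between 1137 and 4172 CPM elsewhere, with 2 of 6 rising (Lum and Col1a1). Most of this sum was Col1a1, a collagen gene at 6639 and 11178 CPM in AngII, so the sum mainly follows that gene. All 6 markers were higher without overlap in AngII than in CTRL, but only 4 of 6 were so against AngII+2W. The same held for 4188 and 4723 of all 17182 genes tested. Smooth muscle markers fell in 5 of 6 and summed to 1679 and 2122 CPM in AngII against 9213 and 7238 CPM in CTRL, and none of 6 endothelial markers passed the test. The part of these cell types in the change of the cycle genes was not tested.

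With 2 libraries per group the number of calls depended on single libraries. The 21 calls in AngII against CTRL became 0 without CTRL replicate 1, 0 without AngII replicate 2, 6 without CTRL replicate 2, 11 without AngII replicate 1, 11 without AngII+2W replicate 1 and 9 without AngII+2W replicate 2, and 22 without either AngII+3W library, while the median log2 fold change of the members stayed between 0.97 and 1.43. Mki67, Top2a, Cdk1, Kif11 and Rrm2 passed the test under 14 of the 16 alternatives tried, which was the highest number. Of the other 16 called members Ccnb1, Ccna2 and Bub1 passed under 13, Kif20a under 12, and Plk1, Prc1, Cenpe, E2f1 and Foxm1 under 11. Ccnb2, Tpx2, Ect2 and Cenpf passed under 10, Kif23 and Racgap1 under 8 and Aurkb under 7.

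The second question was whether these transcripts stayed up after the infusion had ended. The study itself reported more staining for Ki67 protein in aortic sections in AngII and in AngII+3W, which is another measure than RNA. No member passed the test in AngII+2W or in AngII+3W against CTRL, in either direction, where 0% of all genes rose or fell at 2 weeks, and 0.0175% rose and 0.268% fell at 3 weeks. Without AngII+3W replicate 1, the library with skeletal muscle transcripts, the count at 3 weeks was also 0. At 2 weeks the median log2 fold change was 0.15 for the mitotic and 0.15 for the S phase genes, and at 3 weeks 0.11 and 0.08. Both AngII+2W libraries lay above both CTRL libraries for 15 members and below them for 4. The same held for 3722 and 3809 of all 17182 genes tested. In AngII+3W 6 members lay above and 9 below, against 3409 and 3144 of all genes. The summed level of the 25 mitotic genes was 103 and 97.4 CPM in CTRL, 211 and 278 in AngII, then 104 and 94.5 (AngII+2W) and 81.1 and 91.7 (AngII+3W). That of the 15 S phase genes was 116 and 125 CPM (CTRL), 147 and 169 (AngII), 131 and 127 (AngII+2W) and 114 and 121 (AngII+3W). The mitotic sums overlapped with those of CTRL at 2 weeks and lay below them at 3 weeks. Without Anln both AngII+2W libraries lay above both CTRL libraries, and the AngII+3W libraries overlapped with CTRL.

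**Figure D5:**
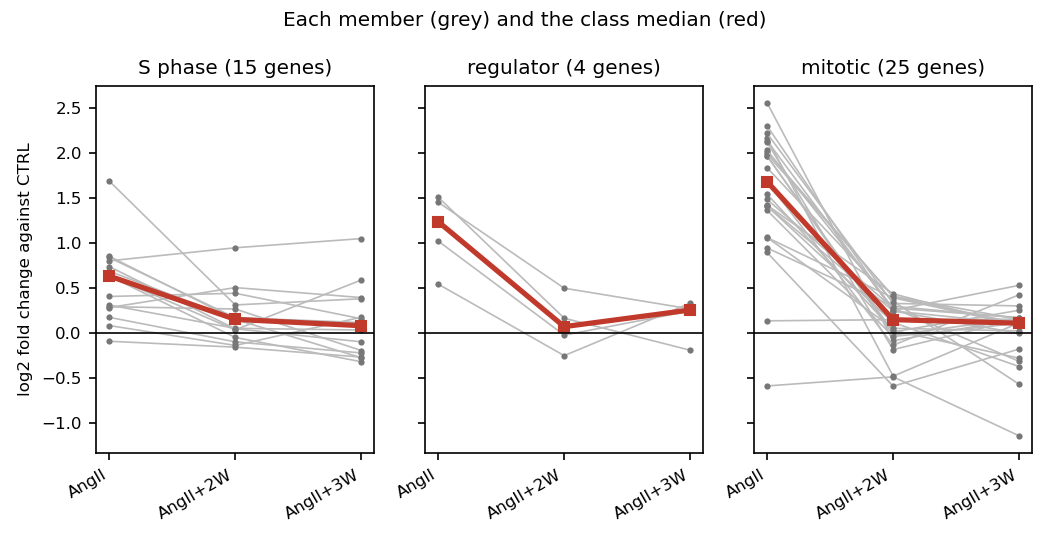
Log2 fold change against CTRL (y axis) of each member (grey lines) and the class median (red squares) in AngII, AngII+2W and AngII+3W (x axis). The 3 comparisons share the CTRL libraries. Mitotic medians run 1.68, 0.15 and 0.11, and S phase medians 0.64, 0.15 and 0.08.

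For the leading genes the intervals were narrow enough to bound what may have remained. The log2 fold change of Mki67 was 0.25 in AngII+2W (interval -0.24 to 0.73) and 0.10 in AngII+3W (interval -0.38 to 0.59). That of Top2a was 0.28 (interval -0.26 to 0.82) and 0.17 (interval -0.37 to 0.71). For Rrm2 it was 0.31 (interval -0.29 to 0.92) and 0.38 (interval -0.22 to 0.99). The interval of Mki67 against CTRL at each later time lay below its interval in AngII, and so did that of Top2a. Smaller changes, within these intervals, could not be told from 0 with 2 libraries per group.

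At an unadjusted p below 0.05 there were 2 members higher and 0 lower in AngII+2W, against 4.52% and 6.18% of all genes, and 2 higher and 1 lower in AngII+3W, against 5.34% and 7.18%. DESeq2 and limma-voom called 0 members at 2 weeks, and 1 and 0 at 3 weeks. The counts at this unadjusted threshold are near or below the shares of all genes and are not a result about the members. The members that met it, named because they are few, were Mcm7 and Cdc6 at 2 weeks and Cdc45, Cdc6 and Anln at 3 weeks. They were picked by the values given here. Cdc6, which loads the helicase on origins, was at 1.02 and 1.18 CPM in CTRL, 1.51 and 2.32 in AngII, then 1.59 and 2.68 (AngII+2W) and 2.10 and 2.47 (AngII+3W). All later libraries were above CTRL and some above AngII, with log2 fold changes of 0.95 ± 0.38 (SE, FDR 0.424) at 2 weeks and 1.05 ± 0.38 (SE, FDR 0.311) at 3 weeks. Cdc6 has a processed pseudogene with 95.2% identity over 33.0% of its transcript. Cdc45, the helicase activator, was at 3.31 and 4.56 CPM in CTRL, 5.83 and 6.44 in AngII, then 4.06 and 4.03 (AngII+2W) and 5.97 and 5.91 (AngII+3W), with 0.59 ± 0.22 (SE, FDR 0.319) at 3 weeks. Mcm7 had 0.44 ± 0.15 (SE, FDR 0.367) at 2 weeks. Anln had -1.14 ± 0.23 (SE, FDR 0.0950) at 3 weeks, a value that passed the threshold with DESeq2 and with a filter of 1 count, where the count of calls was 1 in each.

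The return was also tested directly. Against AngII, 11 members fell and none rose in AngII+3W, where 1.32% of all genes fell and 0.285% rose. This count was 0 when only the 2 groups were fitted, 18 with a filter of 1 count and 21 with DESeq2. The 11 were 10 mitotic genes (Mki67, Top2a, Kif20a, Kif11, Cdk1, Prc1, Tpx2, Ccna2, Bub1 and Ccnb1) and Foxm1, with log2 fold changes from -1.61 (Ccnb1) to -2.40 (Kif20a). The median over the mitotic genes was -1.78, over the S phase genes -0.40 and over all genes 0.04. At an unadjusted p below 0.05 there were 32 members lower and 0 higher at 3 weeks (10.4% and 7.41% of all genes), and 31 lower and 0 higher at 2 weeks (8.45% and 6.57%). Mki67 fell by 2.20 on the log2 scale, from 48.6 and 66.3 to 10.5 and 14.6 CPM. In AngII+2W against AngII 2 members fell, Mki67 by 2.05 and Top2a by 1.75 on the log2 scale, and none rose, where 0.140% of all genes fell and 0.0233% rose, and the mitotic median was -1.51. This count was 18 with DESeq2 or when only the 2 groups were fitted, 12 with a filter of 1 count and 1 with limma-voom or library totals alone. None passed between AngII+3W and AngII+2W, where 0% of all genes rose or fell. There the median log2 difference of the members was -0.11, and at an unadjusted p below 0.05 there were 1 higher and 3 lower members, against 4.62% and 4.22% of all genes, and DESeq2 and limma-voom called 0.

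These comparisons share the AngII libraries with the first one, so the fall is not a second measurement of the rise. The 11 calls at 3 weeks became 6 and 5 without CTRL replicates 1 and 2, 4 and 0 without AngII replicates 1 and 2, 1 and 1 without AngII+2W replicates 1 and 2, 1 without AngII+3W replicate 1 and 13 without AngII+3W replicate 2. The 2 calls at 2 weeks became 13 without either AngII+3W library and 0 without any 1 of the other 6.

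Other genes of the cycle were taken from lists of the same roles. These lists were chosen with earlier results of these data known and were read in the same libraries, so they are not separate evidence. Of 60 further mitotic genes 19 rose in AngII and none fell, where 2.90% of all genes rose and 2.20% fell, with a median log2 fold change of 1.00. Those with the smallest p were Aspm, a protein of the spindle poles (2.14 ± 0.26 (SE, FDR 0.00970)), Cit, the citron kinase of cytokinesis (1.5 ± 0.19 (SE, FDR 0.00970)), Stmn1, which destabilises microtubules (1.35 ± 0.20 (SE, FDR 0.0157)), and Spc25 of the kinetochore (2.82 ± 0.42 (SE, FDR 0.0157)). Spc25 was at 0.438 and 0.282 CPM in CTRL and 2.16 and 2.99 in AngII. Of 39 further S phase genes tested, 13 were higher and 0 lower at an unadjusted p below 0.05, against 10.9% and 9.29% of all genes. Past the FDR threshold 2 of the 39 rose and none fell, against the same 2.90% and 2.20%, with a median of 0.39 over the 39. They were Clspn, an adaptor of the replication checkpoint (1.19 ± 0.24 (SE, FDR 0.0357)), and Dtl, a subunit of a ubiquitin ligase (0.98 ± 0.21 (SE, FDR 0.0426)). In AngII, Aspm and Cit did not pass without CTRL replicate 1 or AngII replicate 2, and Stmn1 and Spc25 also without CTRL replicate 2. Clspn and Dtl lost their calls in each fit that lacked a CTRL, AngII or AngII+2W library. Against AngII, 6 of the 60 further mitotic genes fell in AngII+3W, where 1.32% of all genes did, led by Aspm (-1.84 ± 0.26 (SE, FDR 0.0264)), Ckap2 (-2.44 ± 0.37 (SE, FDR 0.0294)), Ckap2l (-2.74 ± 0.41 (SE, FDR 0.0295)) and Spc25 (-2.25 ± 0.40 (SE, FDR 0.0436)). With 1 library left out, Aspm lost this call in 5 of 8 cases and Spc25 in all 8. None of either list passed in AngII+2W against AngII, or in either later group against CTRL. At an unadjusted p below 0.05, 39 of the 60 further mitotic genes were lower and 1 was higher in AngII+2W against AngII (8.45% and 6.57% of all genes). Against CTRL 6 were higher at 2 weeks and 4 at 3 weeks (4.52% and 5.34% of all genes), and none was lower (6.18% and 7.18%), so that the 4 at 3 weeks are near the share of all genes.

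The genes that govern G1 did not move in 1 direction. Of 16 G1 cyclins, kinases and E2F family genes 1 rose in AngII and none fell, where 2.90% of all genes rose and 2.20% fell. Their log2 fold changes ran from -0.53 to 1.05 with a median of -0.04, 8 of them positive, and at an unadjusted p below 0.05 there were 4 higher and 1 lower, against 10.9% and 9.29% of all genes. It was Ccnd1, cyclin D1, which links growth signals to the cycle and was at 19.1 and 25.03 CPM in CTRL, 44.9 and 41.5 in AngII, then 15.9 and 17.5 (AngII+2W) and 23.2 and 19.6 (AngII+3W). The AngII libraries did not overlap with the rest, and the log2 fold change was 0.97 ± 0.17 (SE, FDR 0.0227). It did not pass without CTRL replicate 1, or without either of the AngII or either of the AngII+2W libraries (FDR of up to 0.125), and its log2 fold change was 0.79 to 1.16 over the 8 single libraries left out. Ccnd1 fell against AngII in AngII+2W (-1.37 ± 0.17 (SE, FDR 0.0436)) and in AngII+3W (-1.01 ± 0.17 (SE, FDR 0.0391)). E2f2, an activator E2F, was at 4.19 and 6.82 CPM (CTRL), 12.2 and 10.7 (AngII), 4.43 and 4.08 (AngII+2W) and 3.82 and 4.35 (AngII+3W). It did not pass in AngII (1.05 ± 0.25 (SE, FDR 0.0581)) and fell in AngII+3W against AngII (-1.48 ± 0.26 (SE, FDR 0.0428)). With 1 library left out, the call of Ccnd1 against AngII was lost in 6 of 8 cases at 2 weeks and in 5 at 3 weeks, and that of E2f2 at 3 weeks in 5.

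Of 20 inhibitors of the cycle tested none rose and 1 fell in AngII, where 2.90% of all genes rose and 2.20% fell. The gene was Btg2, an antiproliferative factor, at 125 and 87.8 CPM in CTRL, 42.8 and 51.9 in AngII, then 62.5 and 49.8 (AngII+2W) and 45.6 and 60.3 (AngII+3W). All libraries of the infused mice lay below both CTRL libraries, but the 2 CTRL libraries themselves differed, and the log2 fold change passed the test in AngII (-1.17 ± 0.23 (SE, FDR 0.0321)) and not in AngII+3W (-1.01 ± 0.22 (SE, FDR 0.120)). In AngII it did not pass without CTRL replicate 1, or without either of the AngII or either of the AngII+2W libraries (FDR of up to 0.153). Cdkn1a, which encodes the kinase inhibitor p21, was at 84.5 and 49.3 CPM in CTRL, 57.4 and 56.4 in AngII, then 66.7 and 51.2 (AngII+2W) and 19.2 and 16.8 (AngII+3W). Both AngII+3W libraries were far below the other 6, which overlapped. Cdkn1a fell in AngII+3W against CTRL (-1.89 ± 0.26 (SE, FDR 0.0455)) and against AngII (-1.66 ± 0.26 (SE, FDR 0.0308)), while in AngII its value was -0.23 ± 0.25 (SE, FDR 0.671). The call against CTRL was lost without CTRL replicate 1 or AngII+3W replicate 1, or without either of the AngII or either of the AngII+2W libraries (FDR of up to 0.193, log2 fold changes of -2.24 to -1.45), and the call against AngII was lost in 5 of the 8 cases (FDR of up to 0.192).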

How the data were processed

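Aortic tissue was measured by RNA-sequencing of ribosomal RNA-depleted libraries, 2 per group. The deposited values are expected counts per gene, unnormalised, which the authors estimated with Salmon against Ensembl cDNA of GRCm38 and summed to genes with tximeta. They were rounded to whole numbers when they were read in. Groups were taken from the sample labels. Genes were filtered with filterByExpr (17182 kept), scaled by TMM and fitted in 1 quasi-likelihood model over all 8 libraries (edgeR 4.0.16, R 4.3.3, 4 groups, 6 comparisons, two-sided). Standard errors are the log2 fold change over the square root of F. The script was tested on simulated counts with known changes.

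Members and gene lists were chosen with earlier results of these data known. Library values are printed for members that passed in any comparison and for a set of helicase, spindle and regulator genes, and others are named where stated. Alternatives were DESeq2 1.42.0, limma-voom 3.58.1, other scalings, filters and fits, a replicate block and leaving out each library. Replicate numbers were not used to pair libraries in the main fit, since groups hold different mice. Whether same-numbered libraries shared a handling step is not given in the labels. Gene positions are from GENCODE M21, promoters from RefSeq, and pseudogene matches from BLAST 2.17.0 (at least 95% identity over 30% of the transcript). Replicates of a group differed by far more than counting noise (chi-square per degree of freedom 12.6 to 87.6). Limits of detection cover counting error only.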

Additional observations from a re-analysis of the deposited data

Results flagged for a closer look

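Members whose change during the infusion differed from that at a later time, by the test between the AngII groups themselves, were singled out. At 2 weeks after the infusion they were Mki67, at -2.05 ± 0.21 (SE, FDR 0.0290) on the log2 scale against AngII, and Top2a at -1.75 ± 0.23 (SE, FDR 0.0476). At 3 weeks they were the cycling-cell antigen Mki67 at -2.20 ± 0.21 (SE, FDR 0.0145), Top2a at -1.86 ± 0.23 (SE, FDR 0.0209) and the kinesins Kif20a at -2.40 ± 0.30 (SE, FDR 0.0209) and Kif11 at -1.83 ± 0.25 (SE, FDR 0.0250). The cyclin-kinase genes were Cdk1 at -1.90 ± 0.28 (SE, FDR 0.0289), Ccna2 at -1.80 ± 0.30 (SE, FDR 0.0413) and Ccnb1 at -1.61 ± 0.29 (SE, FDR 0.0447). The spindle and checkpoint genes were Prc1 at -1.78 ± 0.27 (SE, FDR 0.0307), Tpx2 at -1.80 ± 0.28 (SE, FDR 0.0324) and Bub1 at -2.40 ± 0.41 (SE, FDR 0.0417), and the regulator was Foxm1 at -1.70 ± 0.31 (SE, FDR 0.0460). All p-values are from edgeR's quasi-likelihood test, and these differences share the AngII libraries. In each of these genes both AngII libraries lay above both libraries of the later group. This adds no support, since the genes were picked by their fall in the same libraries. Of all 17182 genes tested, 4723 lay so at 2 weeks and 4164 at 3 weeks.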

How the results depend on the processing

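The median log2 fold change of the members in AngII against CTRL was positive under every alternative, while the number of calls varied. In AngII against CTRL, 21 members were called, 18 to 23 under the 8 alternatives that kept all libraries of both groups, and 0 to 22 when 1 library was left out. In AngII+3W against CTRL, 0 were called, with 1 under DESeq2 and 1 with a filter of 1 count, and 0 throughout when 1 library was left out. In AngII+2W against AngII, 2 were called, with 1 under library totals, 12 with a filter of 1 count, 18 under DESeq2, 1 under limma-voom and 18 when only the 2 groups were fitted, and 0 to 13 when 1 library was left out. In AngII+3W against AngII, 11 were called, with 18 under the filter of 1 count, 21 under DESeq2 and 0 when only the 2 groups were fitted, and 0 to 13 when 1 library was left out. The cause of these differences was not tested. AngII+2W against CTRL and AngII+3W against AngII+2W gave 0 under every alternative.

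Same-numbered replicates came from different mice, and their differences correlated at -0.02 to 0.35 between groups. With the replicate number as a block, 19 members were called in AngII against CTRL, 2 in AngII+2W against AngII and 8 in AngII+3W against AngII, and 0 in each of the other comparisons. No sign changed among the named values when all libraries were kept. With 1 library left out, 4 values changed sign. Mcm6 in AngII (-0.09) ranged from -0.30 without AngII replicate 2 to 0.0933 without AngII replicate 1, and was 0.01 without CTRL replicate 1. Cdkn1a in AngII (-0.23) ranged from -0.58 without CTRL replicate 2 to 0.21 without CTRL replicate 1. In AngII+3W against CTRL, Mki67 ranged from -0.15 without AngII+3W replicate 2 to 0.31 without AngII+3W replicate 1, and Top2a from -0.0632 to 0.37 without the same libraries. Genes with few counts, such as Cdc20, Aurka and Aurkb, had the widest intervals in AngII against CTRL.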
